A study of Mus musculus with 12 samples.

Results

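The epidermal growth factor (EGF) family genes Nrg1, Ereg, Areg, Hbegf, Tgfa, Btc, Egfr, Erbb2 and Erbb3 were examined in cultured stroma of the mouse small intestine. These 9 genes, 6 ligands and 3 receptors, were chosen by symbol from the 23329 genes listed in the count tables. Poly(A)-selected, strand-specific mRNAseq libraries came from 4 groups of 3 libraries (embryonic PBS, embryonic LPS, adult PBS and adult LPS), and the study asked how immature and mature stroma respond to a bacterial stimulus. The mice were of the C57BL6/J background with no allele or transgene named for these groups. Embryonic cultures were made from pooled E14.5 embryos and adult cultures from adult mice whose exact age is not given in the sources used here. In every group the epithelium had been stripped with EDTA, the rest digested with collagenase and dispase, and the adherent cells grown with the kinase inhibitor Y27632 and used at passage 2 or 3. LPS from Escherichia coli was given for 6 h at a concentration stated in the labels as 10 µg/µl, and PBS was the vehicle. The cells were therefore passaged, mixed stromal cultures rather than a sorted population, and no tissue was measured directly.

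Ligands of this family are made as membrane-anchored precursors that proteases release. Egfr binds Ereg, Areg, Hbegf, Tgfa and Btc, Erbb3 binds neuregulins such as Nrg1, and Erbb2 binds no ligand of its own and acts as the partner of the others. In the gut, stromal ligands of this family are known as signals that support epithelial growth and repair after injury.

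Gene counts ranged from 18850224 to 32672370 per library, and the floor was set at 3 counts, which is 0.0897 to 0.145 in CPM, the TMM-normalized count relative to library size (counting error only). The summed level of 9 fibroblast and myofibroblast markers was between 20310 and 39966 CPM in every library, led by Acta2 and Col1a1. The 10 epithelial markers summed to 42.8 to 157 CPM, led by the keratins Krt18 (12.6 to 81.0 CPM) and Krt20 (7.04 to 59.1 CPM), whereas the defining markers Epcam and Vil1 did not exceed 0.488 and 0.482 CPM. Markers of other cells set several pairs of libraries apart. In adult number 2, the summed level of 6 endothelial markers was 1751 CPM with PBS and 1683 CPM with LPS, against 13.9 to 365 CPM in the other adult libraries and 8.31 to 34.7 CPM in embryonic ones. In embryonic number 2, the summed level of 6 mesothelial markers was 796 CPM with PBS and 677 CPM with LPS, against 149 to 162 CPM in the other embryonic libraries and 482 to 1481 CPM in adult ones. The summed level of 14 macrophage markers was between 204 and 2965 CPM in embryonic and between 17.3 and 215 CPM in adult libraries. It was highest in embryonic number 3 (2965 CPM with PBS and 2277 CPM with LPS), and among adult cultures number 1 was highest in both macrophage (197 and 215 CPM) and mesothelial markers (1431 and 1481 CPM). In such mixed cultures, a larger share of a cell type and more RNA per cell cannot be told apart.

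The 9 genes spanned a wide range of levels. Levels of different genes were compared as CPM per kb of annotated exon. This length joins the exons of all annotated transcripts of a gene, and was 10351 bases for Nrg1 and 1215 for Areg. Which transcripts were present was not determined, so the ranks and shares below depend on this length. Among 8 ligands (the 6 above with Egf and Epgn), Hbegf, the heparin-binding ligand, stood first and Ereg, epiregulin, stood next in 12 of 12 libraries. They held between 76.0% and 97.6% of the summed ligand CPM per kb. Hbegf ranged from 7.76 to 147 CPM per kb and Ereg from 3.16 to 67.2 CPM per kb. Nrg1, at 0.937 to 3.18 CPM per kb, was above Btc, at 0.358 to 1.48 CPM per kb, in 12 of 12 libraries. Areg (0 to 4.49 CPM per kb) and Tgfa (0.0734 to 8.72 CPM per kb) had no fixed place, and Nrg1 was above each of them in 9 of 12 libraries. Among the receptors, Egfr held between 75.1% and 89.4% of the summed CPM per kb and was 3.10 to 12.4 times as high as Erbb2, which held between 7.21% and 24.2%. Erbb3 did not exceed 0.281 CPM per kb, and neither it nor Erbb4 was above the other in more than 6 of 12 libraries.

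**Figure D1:**
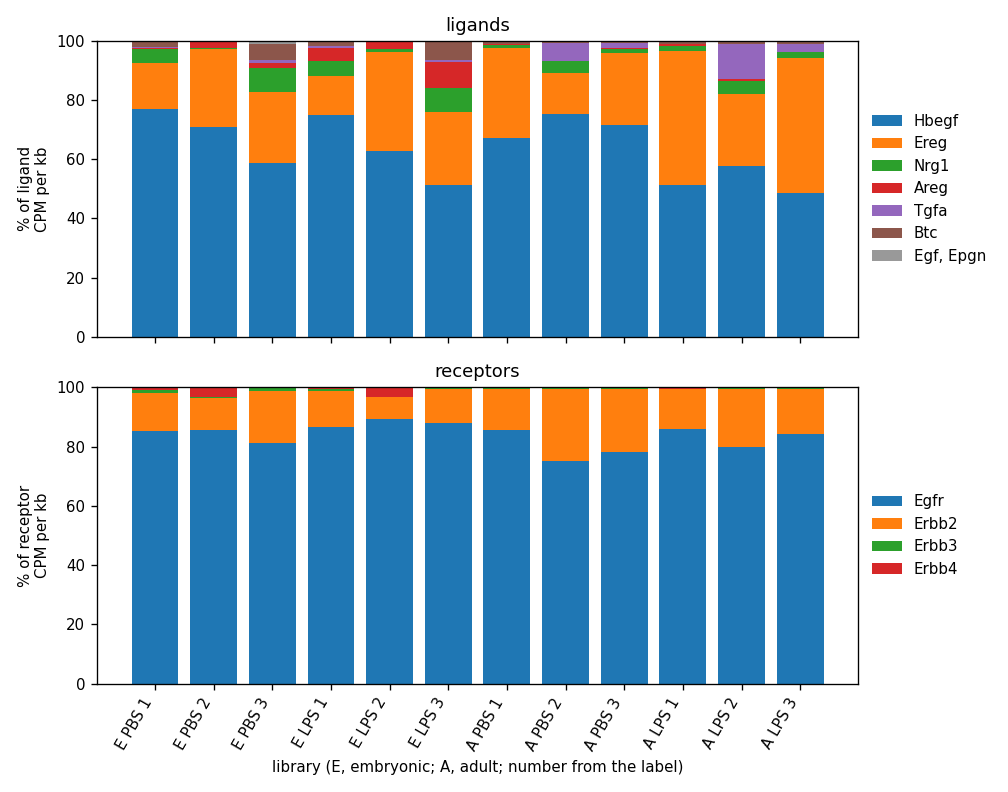
Share of each gene in the summed CPM per kb of 8 ligands (top) and 4 receptors (bottom), in percent, with 1 stacked bar per library (E, embryonic; A, adult). Hbegf and Ereg fill between 76.0% and 97.6% of each ligand bar, and Egfr fills between 75.1% and 89.4% of each receptor bar.

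The main comparison was fitted with edgeR's quasi-likelihood test on all 12 libraries, with Benjamini-Hochberg adjustment over the 13038 genes that passed a filter on low counts. Of the 9 genes, 8 were tested and Erbb3 fell below the filter. LPS and PBS libraries of the same stage and number deviated together from their group means in all 6 pairs, so the same test was also fitted with the number within a stage as a block, called the paired fit here. Without the block, 0 of 8 genes passed an adjusted p of 0.05 for LPS in embryonic stroma, where 2.75% of all tested genes passed, and 0 of 8 passed in adult stroma, where 0.606% passed. By unadjusted p under 0.05 in this edgeR test, 1 of 8 (Nrg1) passed in embryonic stroma, beside 10.8% of all tested genes, and 0 of 8 in adult stroma, beside 5.58%. DESeq2 called 0 of 8 in either stage. In the paired fit, 1 of 8 genes (Nrg1) passed in embryonic stroma, where 12.5% of all tested genes passed, and 2 of 8 (Ereg and Tgfa) passed in adult stroma, where 6.2% passed. By unadjusted p under 0.05 in the paired fit these were 5 of 8 and 4 of 8, beside 27% and 17.9% of all tested genes. Paired log2 fold changes of the 8 had medians of 0.44 (embryonic) and 0.34 (adult), beside 0.00 and -0.01 over all tested genes. The share of called genes in embryonic stroma equalled that of all genes, and Areg entered the test only through its embryonic LPS libraries, so the counts and medians are given as description.

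**Figure D2:**
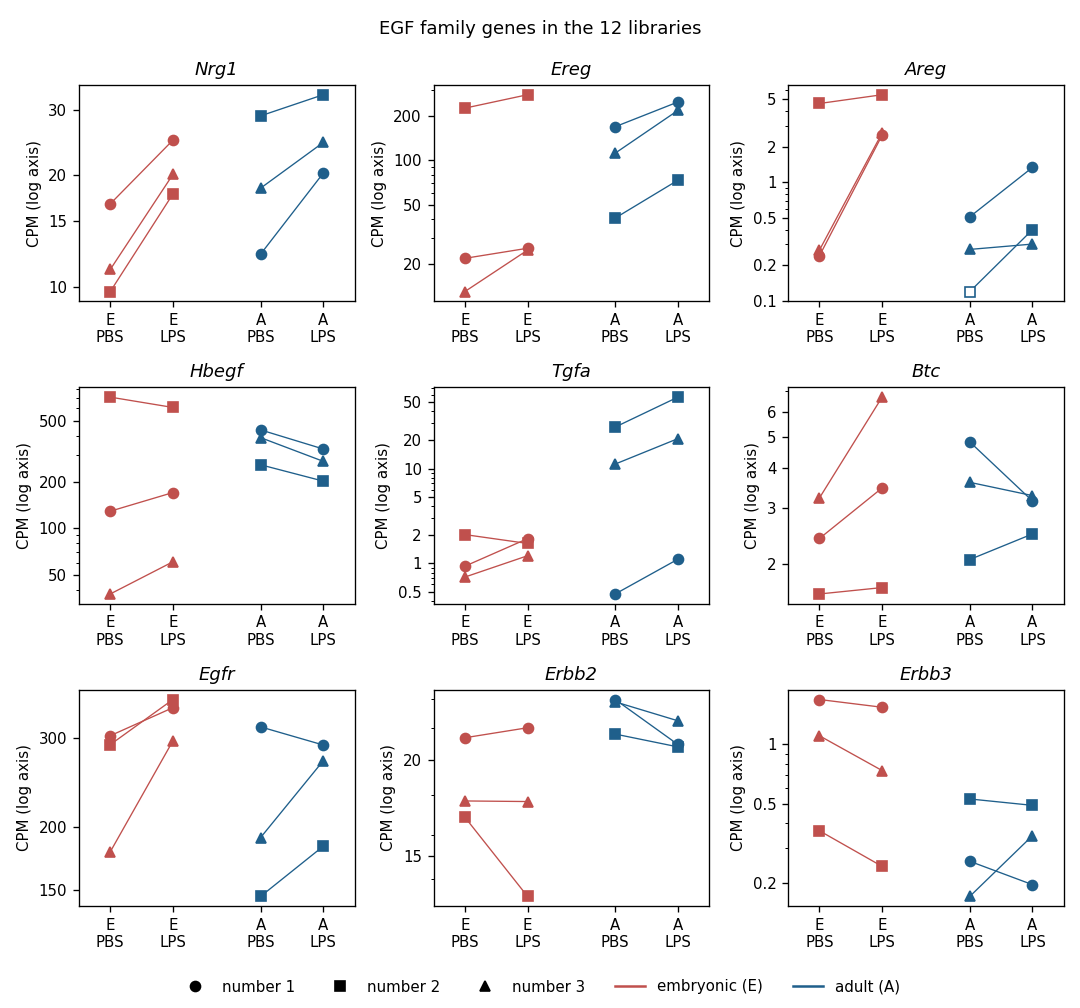
CPM (log axis) of the 9 genes in each library, with lines that join the PBS and LPS libraries of the same stage (E, embryonic; A, adult) and number. Nrg1, Ereg and Areg rise along all 6 lines, Areg from few counts in the adult libraries. Hbegf falls along the 3 adult lines, while the cultures of a stage often lie farther apart than the ends of a line. The open symbol for Areg is a library with 0 counts, drawn near the lower end of the axis.

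Nrg1 (chr8:31807452-32891609, GRCm38.p6) encodes neuregulin 1, a ligand of Erbb3 and Erbb4. In embryonic stroma it was at 16.7, 9.70 and 11.1 CPM in PBS libraries 1, 2 and 3 and at 24.9, 17.8 and 20.1 CPM with LPS. All 3 LPS libraries lay above all 3 PBS libraries, as was so for 7.58% of tested genes. The log2 fold change was 0.74 ± 0.325 (SE) without the block (adjusted p = 0.436, edgeR quasi-likelihood test) and 0.76 ± 0.123 in the paired fit (adjusted p = 0.00599, same test). The paired call held when any 1 of the 6 pairs was left out, and adjusted p-values ranged from 8.69e-05 to 0.0337 over the paired alternatives. In adult stroma Nrg1 was at 12.2, 28.9 and 18.4 CPM with PBS and at 20.3, 33.0 and 24.5 CPM with LPS. The adult groups overlapped, although the LPS library was higher in each of the 3 pairs, as was so for 23.9% of tested genes. Nrg1 and Ereg were higher with LPS in all 6 pairs, as were 13% of tested genes. The CPM of Areg was too, but its adult pairs rest on few counts, with 7 counts for LPS and 8 for PBS in number 3. The paired log2 fold change was 0.44 ± 0.121 with an adjusted p of 0.0894 (edgeR), above the threshold, but it was 0.43 and passed with the adult stage fitted alone (adjusted p = 0.0419), in a range of 0.0419 to 0.427 over the paired alternatives. Whether the LPS effect differed between the stages was tested in the same paired fit, and the difference of 0.33 ± 0.172 did not pass (adjusted p = 0.667, edgeR).

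Ereg (chr5:91074617-91093649) encodes epiregulin, which binds Egfr and Erbb4. In adult stroma it was at 169, 40.9 and 112 CPM with PBS and at 248, 73.5 and 217 CPM with LPS. The LPS library was 1.47, 1.80 and 1.94 times as high as its PBS partner, but adult number 2 stayed below the other cultures under either treatment. Ereg rose in the paired fit, with a log2 fold change of 0.78 ± 0.137 (adjusted p = 0.0150, edgeR), and this call was lost without adult pair 1 (adjusted p = 0.0565), pair 2 (0.103) or pair 3 (0.182), in a range of 1.8e-05 to 0.182 over the paired alternatives. In embryonic stroma Ereg was at 21.8, 225 and 13.0 CPM with PBS and at 25.6, 278 and 24.8 CPM with LPS. Embryonic number 2 was over 10 times as high as the other embryonic cultures under either treatment, and within pairs LPS was 1.17, 1.23 and 1.90 times PBS. The paired log2 fold change was 0.47 ± 0.140 (adjusted p = 0.0681, edgeR), and DESeq2 with the same block gave 0.46 and passed (adjusted p = 0.0262), in a range of 0.0262 to 0.239 over the paired alternatives.

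Areg (chr5:91139599-91148432) encodes amphiregulin, an Egfr ligand whose gene lies 45949 bases from Ereg in a cluster with Epgn and Btc on chromosome 5. In embryonic stroma it was at 0.241, 4.60 and 0.269 CPM with PBS and at 2.49, 5.46 and 2.60 CPM with LPS. These levels came from 8, 151 and 9 counts with PBS and 71, 158 and 67 counts with LPS. Numbers 1 and 3 were 10.3 and 9.67 times as high with LPS, whereas number 2 was already high with PBS and was 1.19 times as high with LPS. The paired log2 fold change was 1.84 ± 0.646 (adjusted p = 0.113, edgeR), in a range of 0.00653 to 0.330 over the paired alternatives, the lowest without embryonic pair 2 (3.30). Since Areg passed the filter on low counts only through its embryonic LPS libraries, these values are a description and no support for a rise in that group. In adult stroma Areg had 14, 0 and 8 counts with PBS and 41, 13 and 7 counts with LPS, so 1 adult PBS library held none at a depth where 3 counts stand for 0.145 CPM. The LPS CPM was nevertheless higher in each adult pair, with a paired log2 fold change of 1.34 ± 0.910 (adjusted p = 0.536, edgeR).

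Of the 9 genes, 5 matched RefSeq's promoter windows for GRCm38.p6. Because Areg and Btc are neighbours in this cluster and Areg had the largest LPS to PBS ratios of the 9 genes, the 250 bases before the start sites of Areg (chr5:91139349-91139598, plus strand) and Btc (chr5:91402995-91403244, minus strand) are shown, with matches to any of 4 motifs in capitals.
Areg: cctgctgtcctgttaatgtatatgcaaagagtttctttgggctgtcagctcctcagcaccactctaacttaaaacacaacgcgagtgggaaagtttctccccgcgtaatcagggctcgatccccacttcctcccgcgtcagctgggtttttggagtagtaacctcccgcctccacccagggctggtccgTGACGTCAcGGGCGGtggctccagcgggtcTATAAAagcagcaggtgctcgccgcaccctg
Btc: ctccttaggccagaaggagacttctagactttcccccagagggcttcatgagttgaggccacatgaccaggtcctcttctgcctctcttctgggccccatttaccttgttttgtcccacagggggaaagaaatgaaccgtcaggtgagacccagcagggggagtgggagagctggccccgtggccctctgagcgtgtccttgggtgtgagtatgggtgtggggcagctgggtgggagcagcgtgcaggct
The motifs were searched on both strands as the TATA box (TATAAA), the cyclic AMP response element (TGACGTCA), the AP-1 site (TGANTCA) and the GC box (GGGCGG). The Areg window held a TATA box 31 bases before the start, a cyclic AMP response element at 61 bases and a GC box at 52 bases, with no overlap between them, and the Btc window held none of the 4. Among all 32851 windows of this length, 12.4% held the TATA box, 1.55% the cyclic AMP response element, 32.7% the GC box and 6.75% the AP-1 site. A match describes the letters in the window and not a bound site.

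Hbegf (chr18:36504927-36515805) was the one ligand that was lower with LPS in all adult pairs. In adult stroma it was at 436, 259 and 388 CPM with PBS and at 327, 203 and 272 CPM with LPS, or 0.752, 0.783 and 0.702 times PBS. A fall in all 3 adult pairs was seen in 25.1% of tested genes. The paired log2 fold change was -0.43 ± 0.149 (adjusted p = 0.175, edgeR), and it passed without embryonic pair 2 (adjusted p = 0.0138) and with the adult stage fitted alone (adjusted p = 0.00189), in a range of 0.00189 to 0.611 over the paired alternatives. The summed epithelial markers were 0.785, 0.854 and 0.703 times PBS in the same adult pairs. This sum was led by the keratin Krt18 (33.1 to 81.0 CPM in adult libraries). Of the 10 epithelial markers, 3 were lower with LPS in all 3 adult pairs and 0 were higher in all. Epcam had 3, 2 and 4 counts with PBS and 15, 3 and 8 counts with LPS. The part of epithelial cells in the Hbegf values was not tested. In embryonic stroma Hbegf was at 129, 711 and 37.5 CPM with PBS and at 171, 609 and 60.7 CPM with LPS. Here numbers 1 and 3 were higher with LPS and number 2 was lower, and number 2 was over 3 times as high as the others under either treatment. The paired log2 fold change was 0.28 (adjusted p = 0.280, edgeR), and without embryonic pair 2 it was 0.54 and passed (adjusted p = 0.00787), in a range of 0.00787 to 0.864 over the paired alternatives. The difference of the LPS effect between stages was 0.71 ± 0.212 in the paired fit (unadjusted p = 0.0104, adjusted p = 0.334, edgeR), and without embryonic pair 2 it was 0.97 (adjusted p = 0.0126, edgeR), in a range of 0.0126 to 0.937 over the paired alternatives. For this difference between stages, 0 of 8 genes passed with or without the block by edgeR or by DESeq2, beside 0.844% of all tested genes in the paired edgeR fit, and by unadjusted p in edgeR 1 of 8 (Hbegf) passed with the block, beside 8.92% of all tested genes, and 0 of 8 without it, beside 2.25%. Without the block 0% of all tested genes passed after adjustment.

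The shares of Hbegf and Ereg among the ligands were also compared within pairs. In adult stroma the Hbegf share of ligand CPM per kb was 67.1%, 75.3% and 71.5% with PBS and 51.2%, 57.6% and 48.6% with LPS. The Ereg share was 30.5%, 13.9% and 24.2% with PBS and 45.4%, 24.5% and 45.4% with LPS. The adult Hbegf shares did not overlap between treatments and the adult Ereg shares did. As parts of a whole, the shares of Hbegf and Ereg are not separate results, and no test was made on them. In embryonic stroma the Hbegf share was 77.1%, 70.9% and 58.8% with PBS and 74.9%, 62.8% and 51.4% with LPS, with overlapping groups. The Ereg share there was 15.3%, 26.3% and 23.9% with PBS and 13.1%, 33.5% and 24.6% with LPS, also with overlap.

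Tgfa (chr6:86195038-86275744), transforming growth factor alpha, was the ligand with the widest spread among adult cultures. It was at 0.476, 27.4 and 11.1 CPM with PBS and at 1.11, 56.6 and 20.7 CPM with LPS. Within pairs LPS was 2.32, 2.07 and 1.85 times PBS, a narrow range beside the 57.5-fold range among the adult PBS libraries. Tgfa rose in the paired fit, with a log2 fold change of 1.00 ± 0.203 (adjusted p = 0.0281, edgeR), and this call was lost without adult pair 1 (adjusted p = 0.135), pair 2 (0.251) or pair 3 (0.200), in a range of 0.000574 to 0.251 over the paired alternatives. In embryonic stroma Tgfa was at 0.934, 2.01 and 0.718 CPM with PBS and at 1.82, 1.62 and 1.20 CPM with LPS, with overlapping groups and a paired log2 fold change of 0.40 ± 0.251 (adjusted p = 0.365, edgeR), which was 0.87 and passed without embryonic pair 2 (adjusted p = 0.0263), in a range of 0.0263 to 0.938 over the paired alternatives.

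Btc (chr5:91357261-91402994), betacellulin, was between 1.62 and 6.68 CPM. It was higher with LPS in 3 of 3 embryonic pairs, as 23% of tested genes were, most in number 3 (3.23 CPM with PBS and 6.68 CPM with LPS), and in 1 of 3 adult pairs. Neither paired change passed, with log2 fold changes of 0.59 ± 0.245 (adjusted p = 0.173, edgeR) in embryonic and -0.19 ± 0.244 (adjusted p = 0.789, edgeR) in adult stroma. Of the ligands outside the 9 genes, Egf was between 0.519 and 4.42 CPM, Epgn did not exceed 0.814 CPM, Nrg2 and Nrg4 did not exceed 0.380 and 0.239 CPM, and Nrg3 had 1 count in all libraries together.

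**Figure D3:**
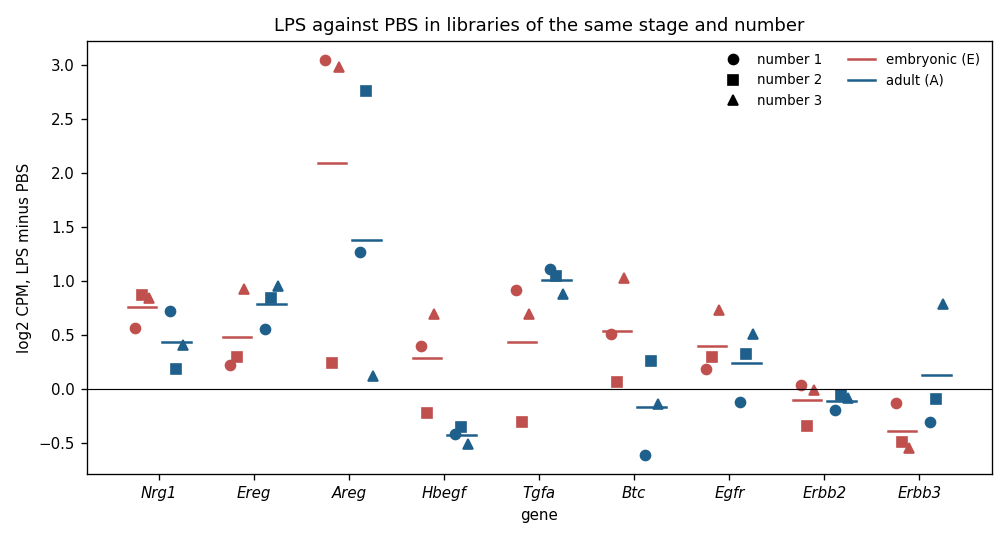
Difference in log2 CPM, LPS minus PBS, between libraries of the same stage and number for the 9 genes, with short bars at the mean of 3 pairs. Areg in embryonic numbers 1 and 3 lies near 3, the 3 adult values of Hbegf lie below 0 and those of Tgfa lie near 1.

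Egfr (chr11:16752203-16913907), the receptor shared by most of these ligands, was at 304, 292 and 179 CPM in embryonic PBS libraries and at 345, 358 and 297 CPM in embryonic LPS libraries. It was higher with LPS in 3 of 3 embryonic pairs, yet the groups overlapped and the paired log2 fold change of 0.40 ± 0.139 did not pass (adjusted p = 0.105, edgeR). In adult stroma it was at 316, 146 and 191 CPM with PBS and at 291, 183 and 271 CPM with LPS, with a paired log2 fold change of 0.24 ± 0.139 (adjusted p = 0.454, edgeR). Erbb2 (chr11:98412484-98437716), the partner receptor, had the smallest spread, between 13.3 and 24.0 CPM. Its paired log2 fold changes were -0.10 ± 0.101 (adjusted p = 0.608, edgeR) in embryonic and -0.11 ± 0.101 (adjusted p = 0.670, edgeR) in adult stroma.

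Erbb3 (chr10:128567523-128589635), the neuregulin receptor, was near the floor in most libraries. It was at 1.69, 0.366 and 1.11 CPM in embryonic PBS, 1.54, 0.242 and 0.738 CPM in embryonic LPS, 0.256, 0.530 and 0.170 CPM in adult PBS and 0.195, 0.492 and 0.346 CPM in adult LPS libraries. The 4 highest values were those of embryonic numbers 1 and 3. Sox10, a defining marker of enteric glia, was between 1.75 and 3.77 CPM in those 4 libraries and did not exceed 0.123 CPM in the other 8. The 9 glial and neuronal markers summed to 46.6 to 74.6 CPM in those libraries, 13.7 and 19.6 CPM in embryonic number 2 and 74.5 to 142 CPM in adult libraries, led by Tubb3, and their part in the Erbb3 level was not tested. Erbb4, the other neuregulin receptor, was at 12.6 and 14.1 CPM in embryonic number 2 and did not exceed 3.41 CPM elsewhere.

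Stage was compared in PBS and in LPS libraries apart, as embryonic minus adult. Without the block, 0 of 8 genes passed in PBS libraries, where 4.08% of all tested genes passed, and 0 of 8 in LPS libraries, where 5.31% passed (edgeR quasi-likelihood test). By unadjusted p in the same test, 1 of 8 (Tgfa) passed in each, beside 19.8% and 22% of all tested genes, and DESeq2 called 1 of 8 (Tgfa) in each. For Tgfa the stage log2 fold change was -3.40 ± 1.36 with PBS (adjusted p = 0.197, edgeR, and 0.0256, DESeq2) and -4.07 ± 1.39 with LPS (adjusted p = 0.120, edgeR, and 0.00457, DESeq2). Over the alternatives adjusted p-values ranged from 0.0256 to 0.464 with PBS and from 0.00457 to 0.306 with LPS. The adult libraries numbered 1 lay within or below the embryonic range of 0.718 to 2.01 CPM, so this difference came from adult numbers 2 and 3.

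Areg with LPS was higher in all 3 embryonic libraries (2.49 to 5.46 CPM) than in all 3 adult ones (0.302 to 1.33 CPM). Its log2 fold change was 2.35 ± 1.19 (adjusted p = 0.282, edgeR). Since Areg entered the test only through its embryonic LPS libraries, these values are a description and no support for a stage difference. Egfr with LPS was also higher in all 3 embryonic libraries (297 to 358 CPM against 183 to 291 CPM), as 13.4% of tested genes were. Its log2 fold change was 0.43 ± 0.299 (adjusted p = 0.464, edgeR). Erbb2 with PBS was lower in all 3 embryonic libraries (16.9 to 21.4 CPM) than in all 3 adult ones (21.6 to 24.0 CPM), as 11.9% of tested genes were, with a log2 fold change of -0.31 ± 0.174 (adjusted p = 0.370, edgeR). Ereg and Hbegf overlapped between stages in both treatments because embryonic number 2 reached or passed the adult levels. Without embryonic pair 2, Ereg in LPS libraries had a log2 fold change of -2.84 (adjusted p = 0.0407, edgeR), beside -0.72 ± 1.19 (adjusted p = 0.789) with all libraries and a range of 0.0407 to 0.943 over the alternatives.

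Levels of 4 ligands had a Pearson's r above 0.7 with the summed markers of another cell type across the 12 libraries. These correlations are given as description, since LPS and PBS libraries of a culture are not independent and the libraries of a stage cluster. For Tgfa and the summed endothelial markers, r of log2 CPM was 0.95, and within the adult cultures both were lowest in number 1, higher in number 3 and highest in number 2. For the summed mesothelial markers, r was 0.90 with Ereg and 0.82 with Hbegf, and embryonic number 2 was the highest embryonic culture in all of these. Hbegf also had an r of 0.71 with the epithelial markers, and Nrg1 had an r of 0.77 with the endothelial and 0.71 with the glial and neuronal markers. The 6 mesothelial markers, led by Upk3b and Upk1b, were all measured in every library, whereas of the 6 endothelial markers Cldn5 was at 0 in 8 of 12 libraries. The endothelial sum was 0.715, 0.961 and 0.924 times PBS in adult pairs 1, 2 and 3, where Tgfa was 1.85 to 2.32 times as high, and 1.12, 2.27 and 3.32 times PBS in the embryonic pairs. The mesothelial sum was 0.859, 0.918 and 1.03 times PBS in adult pairs 2, 3 and 1, where Ereg was 1.80, 1.94 and 1.47 times as high. In embryonic pairs 1, 2 and 3, Nrg1 was 1.49, 1.83 and 1.81 times PBS. The glial and neuronal sum was 1.35, 1.43 and 1.12 times PBS there, and the endothelial sum was higher in each as well. Both sums rested on few genes. Of the 9 glial and neuronal markers, 2 were higher with LPS in all 3 embryonic pairs and 0 were lower in all. Of the 6 endothelial markers these were also 2 and 0. In embryonic libraries Tubb3 was between 12.4 and 63.2 CPM and Kdr between 7.39 and 29.5 CPM. Emcn reached 22.1 CPM there, whereas Pecam1 and Cdh5 did not exceed 1.09 and 0.350 CPM. In the adult pairs, Nrg1 was 1.66, 1.14 and 1.33 times PBS and the glial and neuronal sum 1.11, 0.875 and 1.06 times. The part of these cells in the differences between cultures and in the changes with LPS was not tested.

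**Figure D4:**
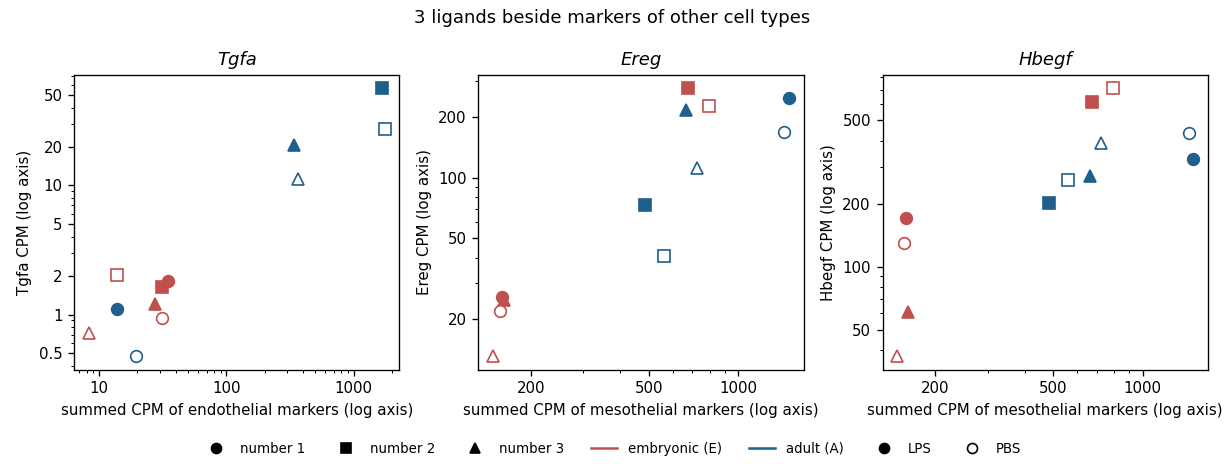
CPM of Tgfa against the summed CPM of 6 endothelial markers, and of Ereg and Hbegf against the summed CPM of 6 mesothelial markers, in each of 12 libraries (log axes, filled for LPS and open for PBS). Adult number 2 lies at the upper right for Tgfa. Embryonic number 2 lies within the adult range of mesothelial markers. It lies above every adult library in Hbegf and, with LPS, in Ereg.

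The genes most like each of the 8 tested members were the 3 with the highest Pearson's r of log2 CPM over the same 12 libraries. For Tgfa they were Egfl7 (r = 0.98), Apln (0.97) and Pecam1 (0.96), all known in endothelial cells. For Ereg they were Gpr39 (0.98), Metap2 (0.97) and Odc1 (0.96), the last encoding the first enzyme of polyamine synthesis. For Hbegf they were Esrp2 (0.97), a splicing factor known in epithelial cells, Baiap2l1 (0.97) and Rnf6 (0.96). For Areg they were Bhlhe40 (0.92), Nhp2 (0.92) and Grina (0.91). For Nrg1 they were Acer2 (0.91), Sox13 (0.90) and Slc22a15 (0.88). For Egfr they were Stk38l (0.95), Phlda1 (0.95), a transcript raised by ERK signalling, and Fbrs (0.95), for Erbb2 Smarcd3 (0.97), Chsy1 (0.96) and Tmem47 (0.96), and for Btc Cabin1 (0.90), Srsf3 (0.89) and 2310044H10Rik (0.88). By the 6 differences of LPS and PBS within pairs, the most alike were Rilpl2 (0.99), Mapk8ip3 (0.98) and Osbpl5 (0.98) for Nrg1, Dhx15 (0.99), Lsg1 (0.99) and Gtf2h1 (0.98) for Ereg, and Vdac2 (1.00), Slc25a5 (1.00) and Nle1 (0.99) for Tgfa. Picked as the highest of all tested genes over 12 libraries or 6 differences, these r values are a description and no support for a link.

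Genes that act before and after these ligands were described from 5 lists. Of 10 genes of ligand release, 1 rose with LPS in embryonic stroma without the block and 3 rose in the paired fit, and 1 rose in the paired fit in adult stroma. Over all tested genes, 2.67% rose with LPS in embryonic stroma without the block, 9.43% rose there in the paired fit and 4.69% rose in adult stroma in the paired fit. The one in common was Rhbdf2, the partner of the sheddase Adam17 on its way to the cell surface, which in embryonic stroma was at 12.6, 13.3 and 20.8 CPM with PBS and 35.3, 42.6 and 91.0 CPM with LPS. In adult stroma it was at 12.6, 12.3 and 10.4 CPM with PBS and 33.2, 26.5 and 22.0 CPM with LPS. All Rhbdf2 values with LPS lay above those with PBS in both stages, as was so for 7.58% of tested genes in embryonic and 9.1% in adult stroma. Its paired log2 fold changes were 1.77 ± 0.133 (adjusted p = 9.7e-05, edgeR) and 1.20 ± 0.135 (adjusted p = 0.00198, edgeR). In embryonic stroma Adam17 itself (0.64, adjusted p = 0.00196, edgeR) and the rhomboid protease Rhbdl2 (0.93, adjusted p = 0.0284) also rose in the paired fit. The summed macrophage markers were 0.831, 2.33 and 0.768 times PBS in the embryonic and 1.09, 0.828 and 1.02 times PBS in the adult pairs. Of the 14 macrophage markers, 4 were higher with LPS in all 3 embryonic pairs and 1 was lower in all of them, and in adult pairs these were 3 and 2. Their part in these rises was not tested.

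Of 17 receptor inhibitors and feedback genes, 1 rose without the block in each stage, beside 2.67% of all tested genes in embryonic and 0.598% in adult stroma, and it was Lrig1, a membrane protein that lowers ErbB receptor levels. In embryonic stroma Lrig1 was at 24.4, 38.7 and 26.0 CPM with PBS and 54.4, 71.5 and 71.2 CPM with LPS. In adult stroma it was at 45.9, 35.5 and 43.8 CPM with PBS and 121, 96.6 and 110 CPM with LPS. All LPS libraries lay above all PBS libraries in both stages, as was so for 7.58% of tested genes in embryonic and 9.1% in adult stroma. Its log2 fold changes without the block were 1.14 ± 0.194 (adjusted p = 0.0122, edgeR) and 1.38 ± 0.195 (adjusted p = 0.0128, edgeR). In the paired fit the phosphatase gene Ptprj also rose in embryonic stroma (1.31, adjusted p = 0.00891, edgeR). The list as a whole had a median of -0.04 in embryonic and -0.01 in adult stroma without the block, beside 0.00 and -0.01 for all tested genes.

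Of 16 transcripts raised by ERK signalling, 5 rose in embryonic and 3 in adult stroma in the paired fit, and 1 (Junb) and 0 rose without the block. The shares over all tested genes were 9.43% and 4.69% in the paired fit and 2.67% and 0.598% without the block. In embryonic stroma the changes of Ier3, Junb and Fosl1 were 1.86 (adjusted p = 0.00042, edgeR), 1.73 (adjusted p = 0.00506) and 1.49 (adjusted p = 0.0101). In adult stroma Ier3, Junb and Myc rose, by 1.84 (adjusted p = 0.000961, edgeR), 1.22 (adjusted p = 0.0362) and 1.13 (adjusted p = 0.0338). Several of these genes are also known to respond to LPS directly. The list's paired medians were 0.66 and 0.42, beside 0.00 and -0.01 for all tested genes.

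The list of 22 relay genes between receptor and ERK or PI3K also held the transcription factor genes Stat5a and Stat5b, which lie outside that relay. In the paired fit 1 of the 22 fell in embryonic stroma (Pik3r2, -0.36, adjusted p = 0.0124, edgeR). There 1 rose in adult stroma (Stat5a, 1.99, adjusted p = 0.0255, edgeR). Without the block 0 passed in either stage. The shares over all tested genes were 12.5% and 6.2% in the paired fit and 2.75% and 0.606% without the block. Of 9 other growth factors of gut repair, Fgf7, keratinocyte growth factor, passed in both stages in the paired fit. In embryonic stroma it was at 0.0904, 0.152 and 0.269 CPM (3, 5 and 9 counts) with PBS and 1.26, 0.898 and 1.90 CPM with LPS, against 25.0, 27.0 and 53.2 CPM with PBS and 39.9, 45.0 and 87.8 CPM with LPS in adult stroma. Its paired log2 fold change was 2.96 ± 0.221 (adjusted p = 9.26e-05, edgeR) in embryonic and 0.71 ± 0.0955 (adjusted p = 0.0044, edgeR) in adult stroma, and these changes differed between the stages (2.25 ± 0.249, adjusted p = 0.00749, edgeR). Fgf7 was lower in embryonic stroma, with log2 fold changes of -7.65 ± 0.585 with PBS (adjusted p = 0.000268, edgeR) and -5.41 ± 0.499 with LPS (adjusted p = 0.0011, edgeR). With Fgf7, 3 of the 74 genes on these lists passed between stages with PBS and 4 with LPS, beside 4.08% and 5.31% of all tested genes, all lower in embryonic stroma. The others were Timp3, an inhibitor of Adam17 (-1.54 with PBS, adjusted p = 0.0415, edgeR, and -1.44 with LPS, adjusted p = 0.046), Socs5 (-1.31, adjusted p = 0.0161, and -1.27, adjusted p = 0.0179) and, with LPS, the adaptor gene Shc1 (-0.35, adjusted p = 0.0389).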

How the data were processed

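Stage, treatment and library number were taken from the sample labels, for 12 mRNAseq libraries in 4 groups of 3. The paper describes 3 independent cultures, from adult mice or pooled embryos, and not 1 culture for each library. The authors trimmed single-end reads, mapped them with STAR to mm10 (GRCm38), kept uniquely mapped reads and deposited raw counts per gene and strand. Counts of the sense strand were used here (the other strand held 1.14% to 1.98% of gene counts; 97.5% to 98.9% of reads had mapped), and rows that name no gene (17.4% to 19.9%) were left out. Annotation was RefSeq for GRCm38.p6 and exon length GENCODE's, both of the build used by the authors.

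Genes with a CPM above 0.5 in all libraries of at least 1 group were kept (13038 genes), following the study's methods, and tested in R 4.3.3 with edgeR 4.0.16 (TMM factors 0.899 to 1.10, quasi-likelihood test, Benjamini-Hochberg adjustment, adjusted p under 0.05). DESeq2 1.42.0 was an alternative. A standard error is the absolute log2 fold change divided by the square root of F. Log2 CPM used a prior of 2 counts, and 3 counts were taken as the floor. Deviations from group means correlated at 0.610 to 0.850 across genes in all 6 same-numbered pairs within a stage, so the number was used as a block within stage; file names of the same number share a prefix whose meaning is not stated, and the sources do not say that a number marks 1 culture. Across stages the correlation was -0.306 to -0.0022 and the numbers share only a name. The biological coefficient of variation was 0.340 without and 0.126 with the block. No 2 libraries of a group agreed within counting noise (chi-square per gene 33.3 to 304). No batch is given in the labels.

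The members, the gene and marker lists, which are from general knowledge, and the alternatives were chosen with earlier results of these data known. Named genes are the 9 members, 6 further family genes, up to 3 pathway genes with the largest change among those that passed in each list and comparison, and the 3 genes most alike to each member. Sox10, Krt18 and other markers were named after their values were seen. Muc2 of the epithelial list was not used here, and Hras and Adgre1 were found under older symbols. Scripts were tested on simulated counts. Figures were drawn with matplotlib 3.10.9 in Python 3.11.15.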

Additional observations from a re-analysis of the deposited data

How the results depend on the processing

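Of 857 values of single genes under the alternatives, 803 kept their direction and their side of the threshold, 18 newly passed, 6 no longer passed and 30 changed sign, of which 0 passed in either setting. The number of genes that passed moved as follows. DESeq2 called 1 in each stage comparison. The replicate block within stage gave 1 for LPS in embryonic and 2 in adult stroma, and each stage fitted alone with the block gave 1 and 4 (adding Nrg1 and Hbegf in adult stroma). DESeq2 with the replicate block called 3 for LPS in embryonic stroma (Nrg1, Ereg and Areg). Leaving out 1 pair at a time with the block gave 1 to 4 for LPS in embryonic stroma (4 without embryonic pair 2: Nrg1, Areg, Hbegf and Tgfa), 0 to 3 in adult stroma (0 without any 1 adult pair) and 0 to 1 for the difference between stages. Without both libraries of embryonic number 2 and no block, 1 gene (Ereg) passed for stage with LPS. A block across stages called none and turned Hbegf with LPS to -0.66. The other blocked fits changed no further call.

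Hbegf for LPS in embryonic stroma was -0.06 without the block, 0.28 with it, 0.26 with the stage alone and the block, and 0.47 without embryonic number 2. Without embryonic number 2, Erbb2 for LPS in embryonic stroma was 0.024 (0.021 with the block), Areg for stage with PBS was -0.10 and Hbegf for stage with LPS was -1.21, and the last was -0.13 without adult number 2. With 1 library left out in turn and no block, log2 fold changes for LPS in embryonic stroma ranged from -1.79 to 2.65 for Ereg, -1.34 to 1.76 for Hbegf and -0.27 to 0.088 for Erbb2. For LPS in adult stroma they ranged from -0.26 to 2.17 for Tgfa, -0.50 to 0.064 for Btc and -0.028 to 0.56 for Egfr, and with the block from -0.39 to 0.051 for Btc and, in embryonic stroma, from -0.17 to 0.021 for Erbb2. For stage with PBS they ranged from -2.63 to 0.20 for Ereg, -2.12 to 0.22 for Hbegf and -0.094 to 3.49 for Areg, and with LPS from -1.21 to 0.50 for Hbegf and -0.21 to 0.76 for Btc. Areg, Tgfa in embryonic stroma and Erbb3 rest on few counts, and with 3 cultures a stage the cause of these shifts was not tested.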
